A study of Homo sapiens with 16 samples.

Results

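The endpoint of the HGF response was compared between cells expressing wt MET and cells expressing MET∆14, as the difference between 2 differences: the change from 0 h to 12 h of HGF in NCI-H596 minus the same change in A549. The libraries of both lines at 0 h and 12 h entered this comparison, 8 of the 16 in the series, and the other 8, taken at 3 h and 6 h, served to estimate the spread and to place the endpoint in time. A549 is a lung adenocarcinoma line labelled as wt MET, and NCI-H596 is a lung adenosquamous line labelled as MET lacking exon 14. Each condition held 2 libraries of polyA RNA from cells deprived of serum before HGF was added, so the 0 h libraries were serum-deprived and had no HGF. Each MET status was 1 cell line, so MET status and every other difference between the lines cannot be told apart. No untreated library was taken at 12 h, so HGF and 12 h of further culture without serum cannot be told apart either. The labels give 12 h of serum deprivation and the study's methods a longer one, and the methods describe another lung line with wt MET (EKVX), so the libraries are named as labelled.

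HGF is the ligand of the receptor tyrosine kinase MET. Its binding turns on the RAS–ERK, PI3K–AKT and STAT3 pathways, which drive scattering, migration, growth and survival of epithelial cells. Exon 14 encodes part of the juxtamembrane region, which holds the docking site of the ubiquitin ligase CBL, and a receptor without it is taken up and degraded more slowly. By 12 h the earliest transcripts of such a response have normally passed their peak, and feedback inhibitors, cell cycle genes and metabolic genes have followed.

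The 8 libraries held 10158590 to 21970052 counts, and 15067 of 42351 genes in the table had counts enough to be tested. Total counts do not fix the precision alone: the replicates of NCI-H596 at 12 h differed more than any other pair, with a median absolute difference of 0.291 on the log2 scale against 0.0953 to 0.177 in the other 7 pairs. Replicate 2 of that pair correlated better with replicate 2 of NCI-H596 at 6 h (r = 0.9868 across genes) than with its own partner (0.9816), which no other of the 16 libraries did. Class counts are therefore also given without each of these libraries, and list medians for each of them. MET itself was read at 1206 and 1275 CPM (counts divided by the scaled size of the library) in A549 at 0 h, at 1539 and 1485 at 12 h, at 369.5 and 370.3 in NCI-H596 at 0 h and at 395.8 and 381.8 at 12 h. The receptor transcript was therefore clearly higher in every A549 library than in NCI-H596, and its change at 12 h did not differ between the lines beyond the spread (difference of -0.21 ± 0.12 on the log2 scale, SE, adjusted p = 0.235). Gene-level counts do not show whether exon 14 was present. CDKN2A, which is known to be deleted in A549, had 0 counts in all 4 A549 libraries, and the summed level of 6 squamous markers ran from 1.82 to 2.22 CPM in A549 and from 2490 to 3140 in NCI-H596 (marker levels are per unscaled library). The 5 epithelial markers summed to 1660 to 2540 CPM in A549 and 2130 to 3140 in NCI-H596, carried in A549 by the keratins KRT8 and KRT18, with EPCAM and CDH1 at most at 2.94 and 12.7 CPM. SOX2, 1 of the 6 squamous markers, was low in both lines, at most at 1.27 CPM in A549 and 2.57 in NCI-H596. The 6 lung and gut lineage markers summed to 73 to 76.5 CPM in A549 and 1.85 to 3.24 in NCI-H596. Among them, FOXA2 gave 58.4 to 65.7 CPM in A549, and SFTPB, a marker of alveolar cells, had 0 counts in both lines. Of the leukocyte markers, PTPRC, CD3E and LYZ reached at most 1 count in a library, and CD68 was read at 32.8 to 40.2 CPM in A549 and 114 to 168 in NCI-H596. The fibroblast markers summed to 11.6 to 13.7 CPM in A549 and 270 to 376 in NCI-H596, where COL3A1 gave 240 to 339. At least 10% of the exon bases of PLK1, NAB1, JUNB, THOC6, FHOD1, PAQR5, PER3, BHLHE40, BCL2L11, APOBEC3B, H4C8, KRT13 and ZSCAN31, named below, overlap a gene on the other strand, and those of REL, POLA2 and SERPINB2 a gene on their own, so part of their counts may belong to a neighbour.

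A gene is called below where its adjusted p is under 0.05. At 12 h, 5284 genes were called in A549 (35.1% of those tested, 2549 or 16.9% higher and 2735 or 18.2% lower) and 5774 in NCI-H596 (38.3%, 2753 or 18.3% higher and 3021 or 20.1% lower). The order of these counts depended on the shared fit. With each line fitted alone, 6568 genes were called in A549 and 4851 in NCI-H596, so neither line is said to respond more widely. The change itself differed between the lines for 3621 genes (24% of those tested), of which 1961 lay toward NCI-H596 and 1660 toward A549. Genes called in both lines numbered 2478. Of these, 1949 moved the same way (12.9% of the genes tested, 928 higher and 1021 lower) and 529 moved in opposite ways (3.51%, 251 higher and 278 lower in A549). A change in 1 line only was assigned where the gene was called in that line and in the difference, was expressed in both lines, and had a 95% interval in the other line within 1.5-fold of no change. By this definition 978 genes changed in A549 only (6.49%, 476 higher and 502 lower) and 996 in NCI-H596 only (6.61%, 570 higher and 426 lower). Another 3706 genes were called in 1 line and met neither definition, so that nothing is said of them here as a class. Without one or the other NCI-H596 library at 12 h, 1409 of the 1949 genes, 381 of the 529, 506 of the 978 and 652 of the 996 kept their class both times.

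**Figure D1:**
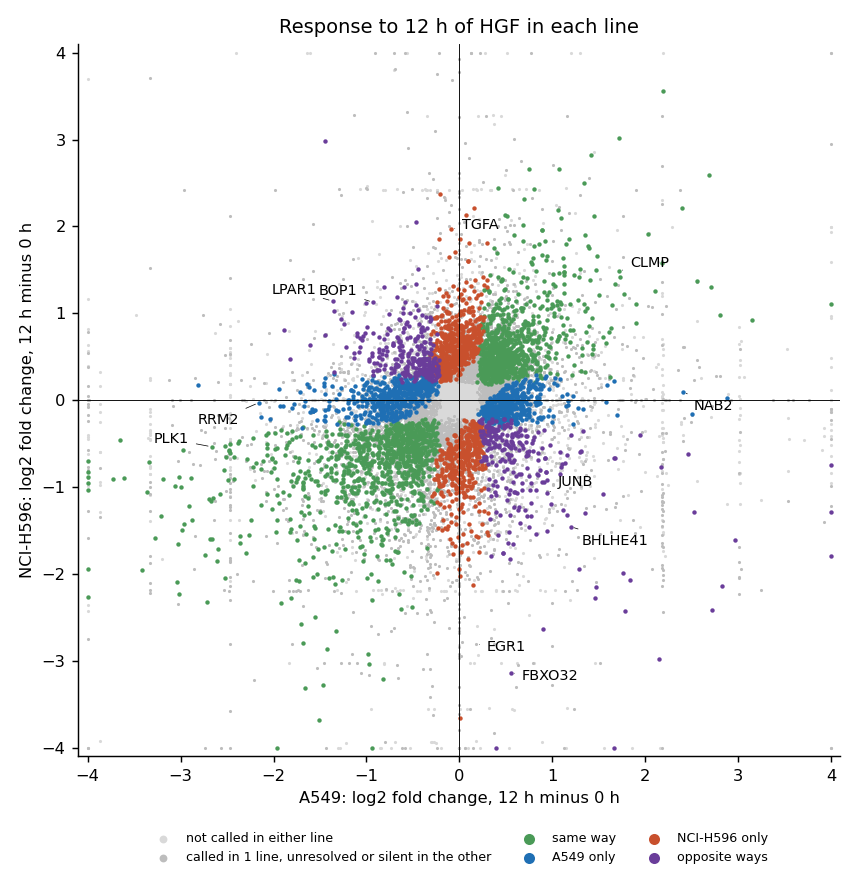
Log2 fold change from 0 h to 12 h of HGF in A549 (horizontal axis) and NCI-H596 (vertical axis), 1 point per gene tested, coloured by class, with changes beyond 4 drawn at the edge. The 529 genes changed in opposite ways lie above one axis and below the other, and the 978 and 996 genes changed in 1 line only lie along the axes.

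Among the genes that changed the same way, CLMP, CD274, PHLDA2 and SPHK1 led the rises and APOBEC3B, CCNB2, AKR1C3 and NUSAP1 the falls of those with no called difference in size. Of the 1949, 1591 had no called difference in the size of the change, which does not show that the changes were equal. CLMP (chr11:123069872-123195248, minus strand), an adhesion molecule of epithelial contacts, read 7.81 and 6.22 CPM in A549 at 0 h and 23.5 and 22.6 at 12 h. In NCI-H596 it read 169.3 and 182.2 CPM at 0 h and 493.3 and 492.7 at 12 h. The 12 h libraries lay well above the 0 h libraries in both lines, at levels that did not overlap between lines, and the log2 fold changes were 1.72 ± 0.13 and 1.49 ± 0.09. CD274, which encodes the immune checkpoint ligand PD-L1, rose by 1.39 ± 0.19 in A549 and 1.76 ± 0.21 in NCI-H596 on the log2 scale. PHLDA2, a pleckstrin homology protein that restrains growth, rose by 1.5 ± 0.17 and 1.21 ± 0.17, and SPHK1, the kinase that makes sphingosine 1-phosphate, by 1.18 ± 0.17 and 1.85 ± 0.19. The difference for SPHK1 missed the threshold (adjusted p = 0.07). Among the falls, the cytidine deaminase gene APOBEC3B (-1.81 ± 0.22 and -1.49 ± 0.24), the mitotic cyclin CCNB2 (-1.62 ± 0.14 and -1.30 ± 0.12) and the aldo-keto reductase AKR1C3 (-1.50 ± 0.15 and -1.29 ± 0.15) led the falls common to both lines without a called difference, together with the spindle gene NUSAP1 (-1.70 ± 0.12 and -1.28 ± 0.10). NUSAP1 shares 86.8% of its exon bases with another annotated gene on its strand, so its counts are uncertain.

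The remaining 358 genes moved the same way by different amounts, 182 of them further in NCI-H596 and 176 further in A549. The mitotic kinase PLK1 read 24.7 and 23.8 CPM in A549 at 0 h and 3.95 and 3.63 at 12 h. NCI-H596 libraries gave 126.4 and 139.9 at 0 h and 88.6 and 95.3 at 12 h. The fall was thus seen in both lines and was deeper in A549 (-2.67 ± 0.18 against -0.54 ± 0.12, adjusted p of the difference = 7.25e-06). HJURP, the chaperone of the centromeric histone, and PRR11 fell by 2.39 ± 0.13 and 2.22 ± 0.11 in A549 and by 0.49 ± 0.10 and 0.44 ± 0.10 in NCI-H596. NAB1, a corepressor of EGR factors, rose by 1.63 ± 0.07 in A549 and by 0.27 ± 0.07 in NCI-H596. Deeper falls in NCI-H596 were found for the sterol exporter ABCG1 (-0.51 ± 0.19 in A549 and -2.38 ± 0.24 in NCI-H596) and for GCLC, the catalytic subunit of the first enzyme of glutathione synthesis (-0.35 ± 0.09 and -1.70 ± 0.09).

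The G2/M and mitosis list of 75 genes showed this graded pattern as a whole: 70 fell and 0 rose in A549, and 62 fell and 1 rose in NCI-H596. Members and lists, here and below, were chosen with earlier results of these data known. Their counts, shares and ranks describe the lists and are not independent evidence. List medians, here and below, cover only members expressed in both lines, meaning that each line averaged 1 or higher in log2 CPM. For this list, 69 of the 75 genes qualified. The median log2 fold change was -1.49 in A549 and -0.62 in NCI-H596. Over the 10888 tested genes that qualified, it was 0 and 0.02. Counted over the whole list, the difference was called toward NCI-H596 for 52 genes and toward A549 for 1. The exception toward A549 was KIF20B, a kinesin of cytokinesis, with a log2 fold change of 0.15 in A549 and -0.62 in NCI-H596 (named after its value was seen). Over all genes tested, the difference was called toward NCI-H596 for 13% and toward A549 for 11%, the shares to set beside the lists here and below. MKI67, the proliferation marker, read 97.8 and 101.1 CPM in A549 at 0 h and 14.7 and 15.1 at 12 h. NCI-H596 libraries held 358.6 and 371.3 at 0 h, and 359.5 and 205.7 at 12 h. The 2 NCI-H596 libraries at 12 h therefore disagreed, one at the level of the 0 h libraries and one below, while A549 showed a clear fall of 2.74 ± 0.20 on the log2 scale. KIF18B, a kinesin that depolymerises microtubules, fell by 2.81 ± 0.23 in A549 with a value of 0.17 ± 0.16 in NCI-H596 (adjusted p = 0.421). ESPL1, the separase that cuts cohesin, had values of -2.78 ± 0.26 and -0.34 ± 0.16, and the kinetochore gene NUF2 fell by 3.02 ± 0.21 and 0.89 ± 0.14.

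The CHR is a promoter element of genes expressed in G2 and mitosis. Its letters TTTGAA, on either strand, were found in 43 of 64 promoters of the list (67.2%), and in 9.77% of the 11036 promoters of all genes tested that RefSeq gives (250 bases before to 50 bases after the start, first start listed for each gene). The promoter of PLK1 is shown because it carries the match close to the start (GRCh38.p14, chr16:23678639-23678868, plus strand, bases 250 to 21 before the start, capitals for the match):
PLK1: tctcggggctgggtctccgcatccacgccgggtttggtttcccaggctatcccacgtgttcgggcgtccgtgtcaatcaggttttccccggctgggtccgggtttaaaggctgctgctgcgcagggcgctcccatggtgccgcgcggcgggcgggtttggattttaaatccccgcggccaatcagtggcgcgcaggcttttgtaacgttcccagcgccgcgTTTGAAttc
A match in these letters is a description of the window and not a site of binding. The other motif of such promoters, CCAAT, was matched in 75% of the list and in 36.4% of all.

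Genes that rose in A549 and fell in NCI-H596 made up 1.67% of all genes tested, and the reverse 1.85%. The first group held 8 of 40 ERK feedback and early genes, 6 of 44 ATF4 targets, 5 of 19 clock genes and 5 of 34 FOXO targets. The reverse group held 10 of 86 genes of ribosome biogenesis, 4 of 67 of DNA replication and 4 of 40 of glycolysis and hypoxia. Of 41 actin, SRF and YAP targets, 8 changed in opposite ways, 1 of them higher in A549. Of the 529 genes, 24 changed at least 2-fold in both lines. JUNB (chr19:12791486-12793315, plus strand), an AP-1 subunit, read 57.9 and 57.8 CPM in A549 at 0 h and 111.6 and 109.9 at 12 h. In NCI-H596 it read 223.7 and 238.6 at 0 h and 96.6 and 124.6 at 12 h. The lines were far apart at 0 h and overlapped at 12 h, with log2 fold changes of 0.94 ± 0.12 and -1.07 ± 0.12 (difference -2.01 ± 0.17, adjusted p = 1.82e-06). LTBP1, which holds latent TGF-β in the matrix, rose by 0.85 ± 0.15 in A549 and fell by 0.86 ± 0.14 in NCI-H596. GFPT2, of the hexosamine pathway, rose by 0.84 ± 0.12 and fell by 0.85 ± 0.17, and THOC6, a subunit of the THO complex of mRNA export, rose by 0.89 ± 0.12 and fell by 0.94 ± 0.12. The histone genes H2BC5 (1.16 ± 0.14 and -1.32 ± 0.14) and H4C8 (0.95 ± 0.16 and -0.91 ± 0.15) showed the same direction, but they belong to families of near-identical genes and their counts are uncertain.

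In the reverse direction, LPAR1 (chr9:110873263-111038470, minus strand), a receptor of lysophosphatidic acid, read 16.9 and 9.54 CPM in A549 at 0 h and 5.002 and 5.248 at 12 h. In NCI-H596 it read 14.1 and 14.4 at 0 h and 29.7 and 33.5 at 12 h. The lines overlapped at 0 h and were separated at 12 h (difference 2.51 ± 0.28, adjusted p = 2.36e-05). CTPS1, the enzyme that makes CTP, read 69.0 and 67.8 CPM in A549 at 0 h, 34.5 and 33.7 at 12 h, 55.2 and 65.4 in NCI-H596 at 0 h and 137.6 and 123.8 at 12 h. The libraries were close at 0 h and far apart at 12 h (log2 fold changes of 1.12 ± 0.10 in NCI-H596 and -1.0 ± 0.10 in A549). SLC29A1, a nucleoside transporter, fell by 1.24 ± 0.12 in A549 and rose by 0.88 ± 0.10 in NCI-H596. The formin FHOD1 fell by 1.02 ± 0.15 and rose by 0.77 ± 0.13, and UHRF1, which guides the copying of DNA methylation, fell by 0.77 ± 0.14 and rose by 0.83 ± 0.12. BOP1, a factor of the large ribosomal subunit, fell by 0.93 ± 0.12 and rose by 1.13 ± 0.11.

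**Figure D2:**
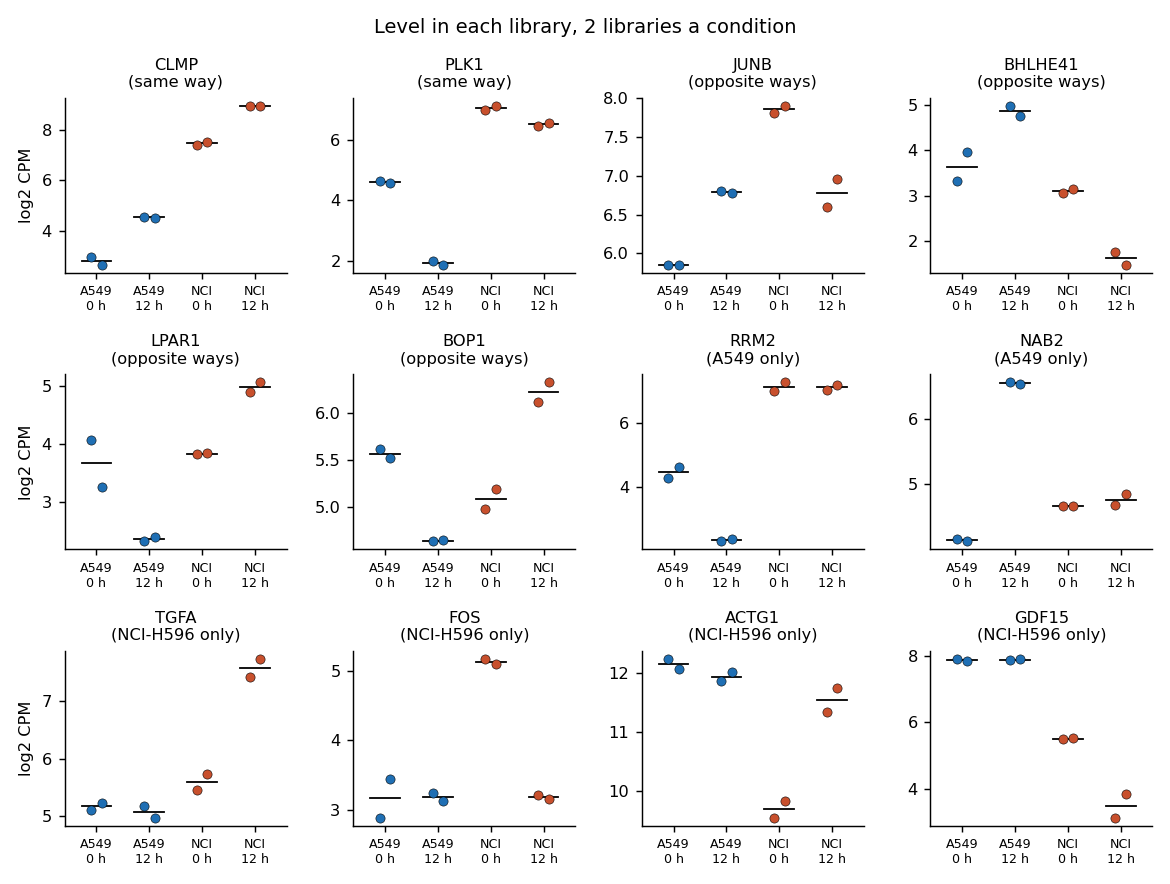
Level of 12 genes in each of the 8 libraries, as log2 CPM, in A549 (blue) and NCI-H596 (red) at 0 h and 12 h, with a bar at the mean of 2 libraries; vertical axes differ between panels. JUNB and BHLHE41 rise in A549 and fall in NCI-H596, LPAR1 and BOP1 do the reverse, and RRM2, NAB2, TGFA, FOS, ACTG1 and GDF15 move in 1 line with little change in the other.

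The list of 40 ERK feedback and early genes held 23 genes higher and 2 lower in A549, against 15 higher and 16 lower in NCI-H596. The difference was called for 65%, beside 24% of all genes, with 19 genes toward A549 and 7 toward NCI-H596. All 8 of its opposite members rose in A549. Several of these encode transcription factors. FOSB rose by 0.77 ± 0.18 in A549 and fell by 1.33 ± 0.22 in NCI-H596, and EGR1, at 55.9 and 117.6 CPM in A549 at 0 h and 99.8 and 96.7 at 12 h, stood in NCI-H596 at 212.0 and 227.9 at 0 h and 33.3 and 29.2 at 12 h. The 0 h libraries of A549 disagreed on EGR1, and its fall of 2.81 ± 0.23 in NCI-H596 was far outside the spread. FOS read 7.38 and 10.9 CPM in A549 at 0 h and 9.48 and 8.75 at 12 h, and went in NCI-H596 from 36.2 and 34.3 to 9.31 and 8.90, the level of A549 (-1.95 ± 0.14). Other members moved further in NCI-H596. SPRED3 and SPRY4, which restrain RAS–ERK signalling, rose in both lines and further in NCI-H596 (1.35 and 2.5, and 0.89 and 1.67), as did FOSL1 (0.52 and 1.17). CCND1, the G1 cyclin, had a log2 fold change of -0.25 in A549 and rose by 0.95 in NCI-H596. These last 4 were named after their values were seen.

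The circadian clock list of 19 genes tested had the largest difference in medians of the 21 lists examined: 0.39 in A549 and -1.03 in NCI-H596. This rank and the shares that follow are descriptions, because the lists were chosen with earlier results of these data known. The difference was called for 73.7% of it, 11 genes toward A549 and 3 toward NCI-H596, beside 24% of all genes. In A549, 9 rose and 1 fell, and in NCI-H596 4 rose and 11 fell. PER3, a period protein of the negative limb, read 19.5 and 18.8 CPM in A549 at 0 h and 35.6 and 31.8 at 12 h, and in NCI-H596 94.4 and 102.4 at 0 h and 37.8 and 29.4 at 12 h. The lines were apart at 0 h and overlapped at 12 h. BHLHE41 and BHLHE40, repressors that bind E-boxes, rose by 1.2 ± 0.16 and 0.82 ± 0.09 in A549 and fell by 1.46 ± 0.21 and 1.04 ± 0.09 in NCI-H596. NR1D2, a nuclear receptor that represses the positive limb, rose by 0.41 ± 0.09 and fell by 1.55 ± 0.10, and TEF, an output factor, had values of -0.24 ± 0.13 and -1.99 ± 0.13. The 3 genes toward NCI-H596 were CRY1 (0.24 in A549 and 1.13 in NCI-H596), NPAS2 (-0.24 and 0.96) and ARNTL2 (0.30 and 1.81), the last 2 being partners or relatives of the positive limb. The 2 NCI-H596 libraries at 12 h gave list medians of -0.86 and -1.22 when taken apart. The E-box CACGTG was matched in 5 of 17 promoters of the list (29.4%) and in 10% of all. The promoter of BHLHE41 is shown because the gene had the largest difference of the list and holds such a match (GRCh38.p14, chr12:26125058-26125287, minus strand, bases 250 to 21 before the start, capitals for CACGTG):
BHLHE41: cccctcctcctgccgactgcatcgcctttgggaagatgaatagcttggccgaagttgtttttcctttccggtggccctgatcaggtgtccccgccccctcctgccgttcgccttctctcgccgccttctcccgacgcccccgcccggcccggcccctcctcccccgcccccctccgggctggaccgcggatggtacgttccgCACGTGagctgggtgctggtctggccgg

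FOXO factors drive genes of atrophy, autophagy and cell death and are kept out of the nucleus by AKT. Of 34 genes tested in the list of FOXO targets, 6 rose and 6 fell in A549, while 0 rose and 26 fell in NCI-H596. The difference was called for 19 genes, all toward A549, and the medians were 0.16 and -0.74. FBXO32, a muscle-atrophy ubiquitin ligase and the largest difference of the list, read 13.1 and 15.98 CPM in A549 at 0 h and 23.3 and 19.2 at 12 h. The NCI-H596 values were 31.0 and 28.4 at 0 h and 3.17 and 3.62 at 12 h, below every A549 library (difference -3.69 ± 0.22, adjusted p = 1.44e-07). KLHL24 (0.55 ± 0.12 and -1.83 ± 0.13), CREBRF (0.47 ± 0.10 and -1.76 ± 0.13) and the autophagy gene GABARAPL1 (0.34 ± 0.11 and -1.79 ± 0.17) also rose in A549 and fell in NCI-H596. BCL2L11, which encodes the death protein BIM, read 19.3 and 16.2 CPM in A549 at 0 h, 20.4 and 21.3 at 12 h, and in NCI-H596 35.98 and 37.5 at 0 h and 18.8 and 17.0 at 12 h. It fell in NCI-H596 (-1.03 ± 0.12) and had a value of 0.23 ± 0.13 in A549 (adjusted p = 0.17). The letters GTAAACA, on either strand, were matched in 4 of 29 promoters of the list (13.8%) and in 2.19% of all. They were matched in 6.4% of promoters of the opposite genes higher in A549, in 2.19% of those lower in A549, in 5.14% of those lower in NCI-H596 only and in 0.485% of those lower in A549 only. Promoters of BCL2L11 and of JUNB are shown as named genes with such a match that fell in NCI-H596 (GRCh38.p14, chr2:111120664-111120893 and chr19:12791236-12791465, plus strand, bases 250 to 21 before the start, capitals for the match):
BCL2L11: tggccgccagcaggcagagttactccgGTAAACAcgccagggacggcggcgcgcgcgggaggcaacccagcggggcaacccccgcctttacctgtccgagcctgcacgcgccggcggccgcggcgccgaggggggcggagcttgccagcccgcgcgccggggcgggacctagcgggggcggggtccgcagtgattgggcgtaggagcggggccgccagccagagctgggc
JUNB: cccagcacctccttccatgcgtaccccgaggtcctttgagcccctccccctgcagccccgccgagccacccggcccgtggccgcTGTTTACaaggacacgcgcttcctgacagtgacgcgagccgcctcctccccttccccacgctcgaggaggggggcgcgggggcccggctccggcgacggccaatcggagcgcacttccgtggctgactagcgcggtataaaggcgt

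Among the genes changed in A549 only, NAB2 led the rises, and RRM2, SMAD6, TPCN1, LIMCH1 and LAMB1 led the falls at an average level of at least 3 on the log2 CPM scale in each line. NAB2 (chr12:57089043-57095476, plus strand), a corepressor of EGR factors that they themselves induce, read 17.9 and 17.5 CPM at 0 h and 94.6 and 92.8 at 12 h in A549. In NCI-H596 it read 25.4 and 25.3 at 0 h and 25.6 and 28.8 at 12 h. The A549 libraries crossed from below to far above the NCI-H596 level, which itself moved by 0.10 ± 0.09 on the log2 scale against 2.41 ± 0.09 in A549. The glycolytic regulator PFKFB4 rose by 1.59 ± 0.15, the Notch coactivator MAML2 by 1.33 ± 0.13, TSPYL2 by 1.22 ± 0.15 and the arrestin-like ARRDC4 by 1.22 ± 0.11. For TSPYL2 the NCI-H596 libraries disagreed at 12 h (71.98 and 45.7 CPM, against 71.83 and 71.47 at 0 h). Its interval there, -0.581 to 0.041, lay only just within the bound of 0.585, so its place in this class is uncertain. RRM2, the small subunit of ribonucleotide reductase, read 19.5 and 24.7 CPM at 0 h and 4.81 and 5.11 at 12 h in A549, against 131.2 and 157.7 at 0 h and 133.8 and 149.8 at 12 h in NCI-H596. The NCI-H596 libraries of the 2 times overlapped (-0.03 ± 0.11), while the fall in A549 was 2.16 ± 0.16. SMAD6, an inhibitor of BMP signalling, fell by 1.94 ± 0.27 in A549, the cation channel gene TPCN1 by 1.93 ± 0.20, the actomyosin regulator LIMCH1 by 1.80 ± 0.16 and the laminin subunit LAMB1 by 1.78 ± 0.12. The 0 h replicates of A549 were apart for SMAD6, TPCN1 and LIMCH1, for example 28.5 and 17.7 CPM for TPCN1, and both were above 6.29 and 5.72 at 12 h. The 12 h replicates of NCI-H596 were also apart for SMAD6 (65.1 and 42.7 CPM) and LAMB1 (717.5 and 535).

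The DNA replication list repeated this division. Of its 67 genes, 49 fell and 2 rose in A549, whereas 12 fell and 9 rose in NCI-H596, and 22 belonged to the genes changed in A549 only. The medians were -0.68 and -0.01, and the difference was called for 44 genes toward NCI-H596 and 0 toward A549. MCM10, a factor of replication initiation, read 8.75 and 8.63 CPM at 0 h and 2.86 and 2.69 at 12 h in A549, and 12.1 and 14.2 at 0 h and 18.0 and 14.8 at 12 h in NCI-H596. It fell by 1.64 ± 0.17 in A549 and had a value of 0.32 ± 0.13 in NCI-H596 (adjusted p = 0.066). POLA2, of the primase complex, fell by 1.45 ± 0.15 in A549 with a value of 0.17 ± 0.11 in NCI-H596. Only 2 of 55 promoters of this list held the letters of the CHR (3.64%), and 0 held GTAAACA.

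Among the genes changed in NCI-H596 only, DOCK4, PAQR5, TGFA, ACTG1 and STX1A led the rises, and ZSCAN31, GDF15, TEF, FOS and NEDD9 the falls. ZSCAN31, a zinc finger gene, fell by 3.66 ± 0.17 there and had a value of 0.00 ± 0.14 in A549. TGFA (chr2:70447284-70554193, minus strand), a ligand of EGFR, read 34.5 and 37.6 CPM at 0 h and 36.2 and 31.4 at 12 h in A549, and 43.8 and 53.4 at 0 h and 169.9 and 212.2 at 12 h in NCI-H596. The A549 libraries of the 2 times overlapped (-0.09 ± 0.14), and the rise in NCI-H596 was 1.97 ± 0.13. DOCK4, an activator of RAC, rose by 2.22 ± 0.15, the progestin receptor family member PAQR5 by 2.13 ± 0.13 and the syntaxin STX1A by 1.85 ± 0.25. PAQR5 started at 7.17 and 10.6 CPM against 139.0 and 133.8 in A549, and STX1A at 3.58 and 4.82 against 57.7 and 48.6, so these rises stayed below the level of A549. GDF15, a stress cytokine, fell by 2.02 ± 0.16 from 44.98 and 45.8 CPM, with A549 steady between 227.9 and 240.1. NEDD9, a focal adhesion scaffold, fell by 1.75 ± 0.13 in NCI-H596 with a value of 0.21 ± 0.11 in A549.

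Actin genes rose in this line from a high level. ACTG1, cytoplasmic γ-actin, read 4835 and 4307 CPM at 0 h and 3723 and 4140 at 12 h in A549, and 750.3 and 915.9 at 0 h and 2587 and 3442 at 12 h in NCI-H596. ACTB read 3661 and 3242, then 3248 and 3447 in A549, and 3097 and 3473, then 9683 and 11670 in NCI-H596. Both rose in NCI-H596 beyond the spread (1.85 ± 0.14 and 1.70 ± 0.12), with values of -0.22 ± 0.14 and -0.04 ± 0.12 in A549; actin genes have near-identical copies elsewhere in the genome, and how shared reads were assigned is not given in the sources used here. In the list of 41 actin, SRF and YAP targets, 7 rose and 11 fell in A549 and 22 rose and 8 fell in NCI-H596. The difference was called for 70.7%, beside 24% of all genes. The list was divided, since the YAP-responsive ANKRD1 fell by 1.82 ± 0.31 in NCI-H596 with a value of 0.09 ± 0.19 in A549, and other members that fell there were CCN1 (-1.47), CCN2 (-1.23), AMOTL2 (-1.07) and EDN1 (-1.81), named after their values were seen.

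Of the 21 lists, ribosome biogenesis had the largest share moving in 1 direction in NCI-H596: 79 of 86 genes rose and 0 fell, against 27 and 11 in A549. The medians were 0.63 and 0.12, the difference was called for 53 genes toward NCI-H596 and 1 toward A549, 35 genes belonged to those changed in NCI-H596 only, and all 10 opposite members rose in NCI-H596. MYBBP1A, a nucleolar MYB-binding protein, read 130.9 and 145.0 CPM at 0 h and 98.2 and 92.0 at 12 h in A549, and 69.4 and 72.9 at 0 h and 154.1 and 130.3 at 12 h in NCI-H596. The order of the lines turned between the times. TCOF1, a cofactor of RNA polymerase I, fell by 0.67 ± 0.10 and rose by 0.73 ± 0.10, and RRP9, of the U3 particle that processes rRNA, rose by 1.15 ± 0.13 in NCI-H596 with a value of -0.13 ± 0.12 in A549. The E-box CACGTG, the preferred site of MYC, was matched in 27 of 70 promoters of the list (38.6%). MYC itself rose by 0.63 in A549 and fell by 1.26 in NCI-H596 at 12 h (named after its value was seen).

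**Figure D3:**
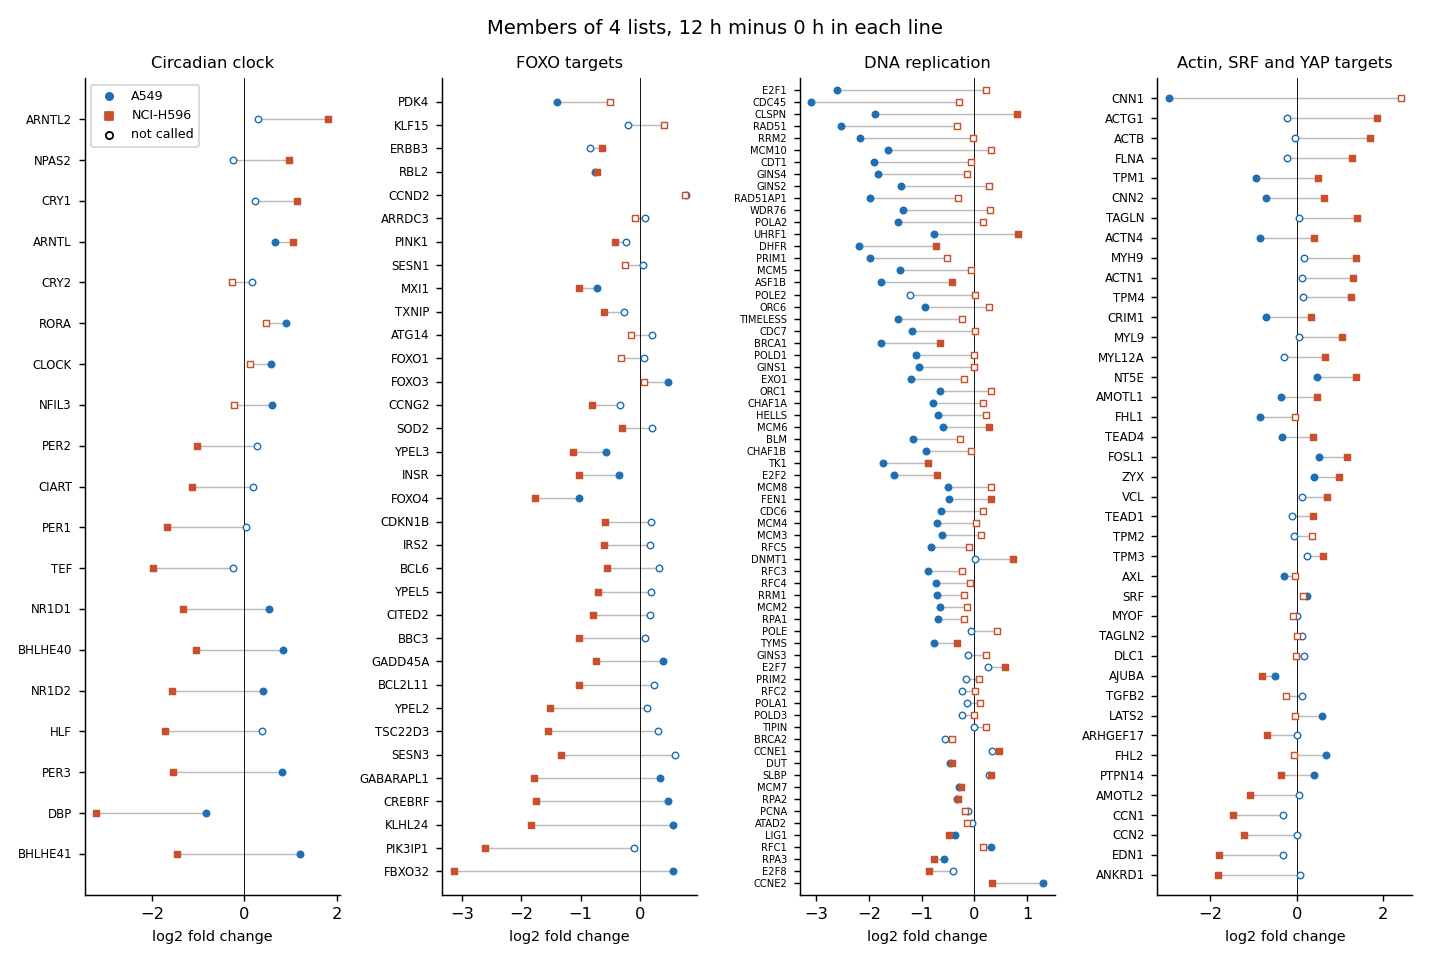
Log2 fold change from 0 h to 12 h for the members of 4 lists that are reported here in A549 (blue circles) and NCI-H596 (red squares), filled where the change was called, in the order of the difference between the lines. Clock and FOXO members lie to the left in NCI-H596, replication members to the left in A549, and actin genes to the right in NCI-H596.

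Some genes changed in 1 line and were all but silent in the other, with at most 3 counts in each of its 4 libraries, so their difference between lines has no meaning as a response. In A549, 151 such genes changed (66 higher, 85 lower). HAS2, a hyaluronan synthase, read 10.2 and 11.6 CPM at 0 h and 36.7 and 40.6 at 12 h, and the BMP antagonist GREM1 47.2 and 74.5, then 220.1 and 184.3. PRSS3, a trypsinogen with close relatives, rose by 1.52. The synaptic gene CPLX2 (-2.88), the matrix gene SMOC1 (-1.72) and the retinal dehydrogenase ALDH1A1 (-1.58) fell. ALDH1A1 read 930.3 and 685.8 CPM at 0 h and 258.5 and 281.6 at 12 h. In NCI-H596, 271 genes silent in A549 changed, 50 higher and 221 lower. COL8A1, a short-chain collagen, read 16.7 and 12.9 CPM at 0 h and 44.6 and 39.7 at 12 h, and the receptor phosphatase PTPRZ1 4.17 and 3.97, then 20.5 and 12.7. SERPINB2, an inhibitor of urokinase, read 64.8 and 72.8 CPM at 0 h and 238.9 and 404.5 at 12 h. The death ligand TNFSF10 fell by 2.18, the squamous keratin KRT13 by 2.01 ± 0.14 and the ligand WNT10A by 1.96.

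In NCI-H596, members of the stress lists fell more than rose. Of 44 ATF4 targets, 24 fell and 2 rose there, against 10 and 10 in A549, the medians were -0.48 and 0, and the difference was called for 23 genes toward A549 and 4 toward NCI-H596. DDIT3, the stress factor CHOP, rose by 0.58 ± 0.13 in A549 and fell by 1.65 ± 0.15 in NCI-H596, but 31.6% of its exon bases overlap MARS1 on the other strand and the use of strand is not known. CHAC1, a glutathione-degrading enzyme, and ATF3 fell in NCI-H596 by 1.41 ± 0.20 and 1.53 ± 0.18, with values of 0.42 ± 0.17 and 0.39 ± 0.16 in A549. Of 28 p53 targets, 14 fell and 4 rose in NCI-H596 and 2 fell and 8 rose in A549, with medians of -0.33 and 0.09. TP53INP1 (-1.18 ± 0.11) and PLK2 (-1.37 ± 0.11) fell in NCI-H596 only, and GADD45A rose by 0.39 ± 0.09 in A549 and fell by 0.74 ± 0.09 in NCI-H596. The p53 list shares members with the FOXO, ATF4 and apoptosis lists. Among 46 apoptosis regulators, 10 rose and 9 fell in A549 and 11 rose and 13 fell in NCI-H596. Of all genes tested, 16.9% rose and 18.2% fell in A549, and 18.3% and 20.1% in NCI-H596. The list medians were close to 0 in both lines (-0.03 and 0.05), with 10 differences called toward A549 and 7 toward NCI-H596. Members that fell in NCI-H596 only included the death genes BBC3 (-1.04 ± 0.16) and CASP10 (-1.23 ± 0.13). BIRC5, an inhibitor of cell death that is also a mitotic gene, fell in both lines (-2.22 ± 0.15 in A549 and -0.99 ± 0.13 in NCI-H596).

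Of 61 interferon-stimulated genes, 45 fell and 0 rose in NCI-H596 and 15 fell and 5 rose in A549, with medians of -0.83 and -0.30. The difference was called for 26.2% of the list, close to the 24% of all genes. SAMD9, an antiviral factor, read 5.498 and 6.151 CPM at 0 h and 9.67 and 9.96 at 12 h in A549, and 434.6 and 366.8, then 157.8 and 133.4 in NCI-H596. PARP14 rose by 0.40 ± 0.12 in A549 and fell by 1.09 ± 0.11 in NCI-H596, and the RNA sensor-like DDX60 (-1.41 ± 0.10) and IFIT5 (-1.28 ± 0.11) fell in NCI-H596 with values of 0.30 ± 0.16 and 0.21 ± 0.11 in A549. NRF2 targets fell in both lines, 26 of 34 in A549 and 28 of 34 in NCI-H596, 22 of them the same way, with medians of -0.58 and -0.67. The reductase AKR1B10 fell by 2.65 ± 0.21 in A549 and by 1.13 ± 0.23 in NCI-H596. The cytochrome CYP4F11 fell in A549 only (-1.42 ± 0.14).

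Metabolic lists were mixed. Of 40 glycolysis and hypoxia genes, 4 rose and 15 fell in A549 and 11 rose and 5 fell in NCI-H596. PFKP, a phosphofructokinase, read 833.1 and 843.9 CPM at 0 h and 618.1 and 623.7 at 12 h in A549, and 119.0 and 123.1, then 219.7 and 223.4 in NCI-H596. The lactate exporter SLC16A3 fell by 0.94 ± 0.12 and rose by 0.54 ± 0.09, and CA12, a carbonic anhydrase, had values of -1.46 ± 0.17 and -0.31 ± 0.17. Of 35 cholesterol and fatty acid genes, 5 rose and 10 fell in A549 and 3 rose and 10 fell in NCI-H596, with medians of -0.02 and -0.10. The sterol carrier STARD4 rose in A549 only (0.87 ± 0.14), TM7SF2 fell in NCI-H596 only (-0.95 ± 0.14), and ME1, malic enzyme, rose by 0.29 ± 0.10 and fell by 0.66 ± 0.11. Of 31 ER chaperone genes, 8 rose and 3 fell in A549 and 9 rose and 2 fell in NCI-H596. HERPUD1 rose by 0.32 ± 0.09 in A549 and fell by 0.91 ± 0.09 in NCI-H596, OSTC fell by 0.33 ± 0.10 and rose by 0.45 ± 0.10, SDF2L1 rose by 0.72 ± 0.14 in NCI-H596 only, and XBP1 had values of 0.46 ± 0.13 and -0.34 ± 0.13.

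Of 52 invasion and matrix genes, 14 rose and 10 fell in A549 and 21 rose and 7 fell in NCI-H596. The difference was called for 53.8%, beside 24% of all genes, with 19 genes toward NCI-H596 and 9 toward A549. TGM2, a transglutaminase that crosslinks the matrix, read 67.9 and 75.8 CPM at 0 h and 54.2 and 49.9 at 12 h in A549, and 46.4 and 43.0, then 167.4 and 201.5 in NCI-H596. The integrin subunit ITGB4 fell by 1.10 ± 0.14 in A549 and had a value of 0.36 ± 0.14 in NCI-H596 (adjusted p = 0.0533). Of 52 genes of epithelial junctions and EMT, 10 rose and 12 fell in A549 and 14 rose and 16 fell in NCI-H596. E-cadherin (CDH1) fell by 1.72 ± 0.31 in A549 from a low level, with a value of -0.25 ± 0.18 in NCI-H596. KRT80 fell in NCI-H596 only (-0.78 ± 0.11), the epithelial factor ELF3 fell in both (-0.95 ± 0.17 and -2.00 ± 0.22), and CLDN4 had values of 0.47 ± 0.29 and -0.76 ± 0.22.

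In the list of 29 TGF-β and BMP feedback genes, 14 rose and 3 fell in A549 and 7 rose and 9 fell in NCI-H596. The activin subunit INHBA rose by 1.84 ± 0.17 in A549 with a value of 0.23 ± 0.17 in NCI-H596, and the repressor TGIF1 rose by 0.33 ± 0.08 and fell by 1.36 ± 0.09. Of 38 NF-κB and inflammatory genes, 15 rose and 2 fell in A549 and 9 rose and 13 fell in NCI-H596, and the difference was called for 23.7%, no more than over all genes. The chemokine CXCL8 rose in both lines (2.55 ± 0.25 and 1.38 ± 0.24), REL rose by 0.87 ± 0.17 and fell by 0.80 ± 0.18, and PTGS2, the inducible cyclooxygenase, rose by 0.41 ± 0.13 and fell by 0.34 ± 0.12. BIRC3, an inhibitor of apoptosis that NF-κB induces, fell by 0.45 ± 0.16 in NCI-H596. Of 27 STAT3 targets, 6 rose and 4 fell in A549 and 6 rose and 12 fell in NCI-H596. The difference was called for 25.9%, close to the 24% of all genes. The feedback inhibitor SOCS3 fell in NCI-H596 only (-0.89 ± 0.12), and BCL6 fell there by 0.55 ± 0.13 with a value of 0.32 ± 0.13 in A549. Of 43 receptor tyrosine kinase genes, 12 rose and 9 fell in A549 and 12 rose and 10 fell in NCI-H596. MST1R, the relative of MET that binds MSP, fell by 0.56 ± 0.19 in A549 and rose by 0.40 ± 0.13 in NCI-H596, FGFR4 fell in A549 only (-0.95 ± 0.16), and CBLB, of the CBL ubiquitin ligases, fell in NCI-H596 only (-0.78 ± 0.12).

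The replicates of NCI-H596 at 12 h, taken apart, gave list medians of like size for G2/M (-0.62 for both), DNA replication (-0.04 and -0.06), ribosome biogenesis (0.58 and 0.64) and ATF4 targets (-0.5 and -0.47). They were further apart for interferon-stimulated genes (-0.96 and -0.59), clock genes (-0.86 and -1.22), p53 targets (-0.45 and -0.27) and NRF2 targets (-0.76 and -0.58). The same held for invasion and matrix genes (0.36 and 0.19), FOXO targets (-0.88 and -0.72) and actin, SRF and YAP targets (0.38 and 0.24). The NF-κB list gave -0.02 and 0.24 and the STAT3 list -0.20 and 0.01, so the sign of these 2 medians depended on the library.

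**Figure D4:**
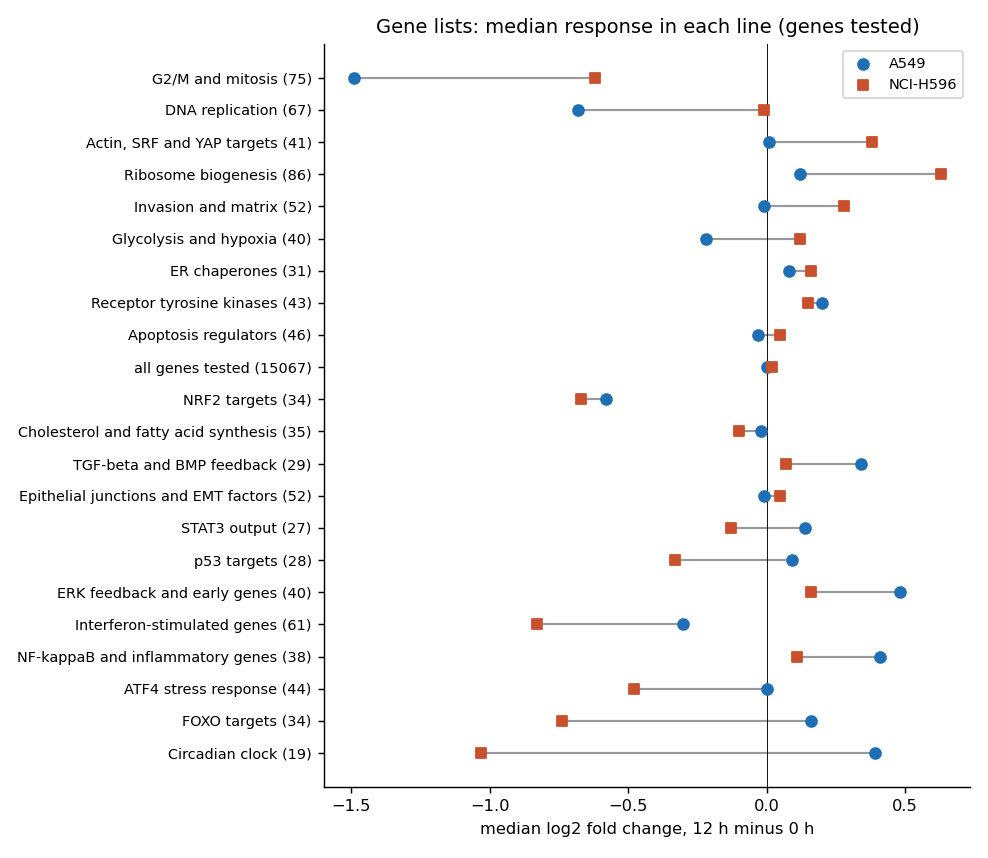
Median log2 fold change from 0 h to 12 h over the genes of each list expressed in both lines. A549 is shown as blue circles and NCI-H596 as red squares, in the order of the median difference. Numbers in brackets count all tested genes of a list, and the medians rest on at most that many. The clock list has the widest gap toward A549 (0.39 and -1.03) and the G2/M list the widest toward NCI-H596 (-1.49 and -0.62). Among all genes tested, the 10888 expressed in both lines lie at 0 and 0.02.

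The classes describe the endpoint and were compared with 3 h and 6 h, in libraries that share the 0 h baseline with it. Some genes changed in 1 line only at 12 h were called in the other line earlier. The share of all genes called at 3 h and 6 h is not given here, so the counts that follow are not read as a trait of these classes. Of the 978 genes changed in A549 only, 281 were called in NCI-H596 at 6 h in the direction of the A549 change and 85 against it, and at 3 h 208 and 123. Of the 996 changed in NCI-H596 only, 205 were called in A549 at 6 h in the same direction and 71 against it, and at 3 h 116 and 56. FOS had a log2 fold change of 4.2 in A549 at 3 h, 2.09 at 6 h and 0.00 at 12 h, and NEDD9 one of 1.49, 1.54 and 0.21. Of the 529 genes in opposite ways at 12 h, 237 were called in opposite directions at 6 h and 13 in the same direction, and at 3 h the numbers were 64 and 22. The median log2 fold change of the 251 higher in A549 went through 0.26, 0.44 and 0.55 in A549 at 3 h, 6 h and 12 h, and through -0.29, -0.58 and -0.59 in NCI-H596. For the 502 genes lower in A549 only, the medians were -0.25, -0.49 and -0.68 in A549, against -0.10, 0.01 and 0.05 in NCI-H596. For the 570 genes higher in NCI-H596 only, they were 0.38, 0.65 and 0.59 in NCI-H596. Levels at 0 h also differed by class, measured on the same 0 h libraries as the changes. Of the 1021 genes lower in both lines, 65.3% were called higher in NCI-H596 at 0 h and 20.2% higher in A549, whereas of the 928 higher in both 21.2% and 64.8% were, beside 40.6% and 39.6% of all genes. The gap between the lines was narrower at 12 h than at 0 h for 42.2% of all genes, for 19.1% of the genes lower and 21.4% of the genes higher in A549 only, and for 51.1% of the genes higher in NCI-H596 only. The median absolute gap widened from 0.97 to 1.40 on the log2 scale among genes in opposite ways, and 81 of the 529 were called different between the lines at both times with the order turned.

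**Figure D5:**
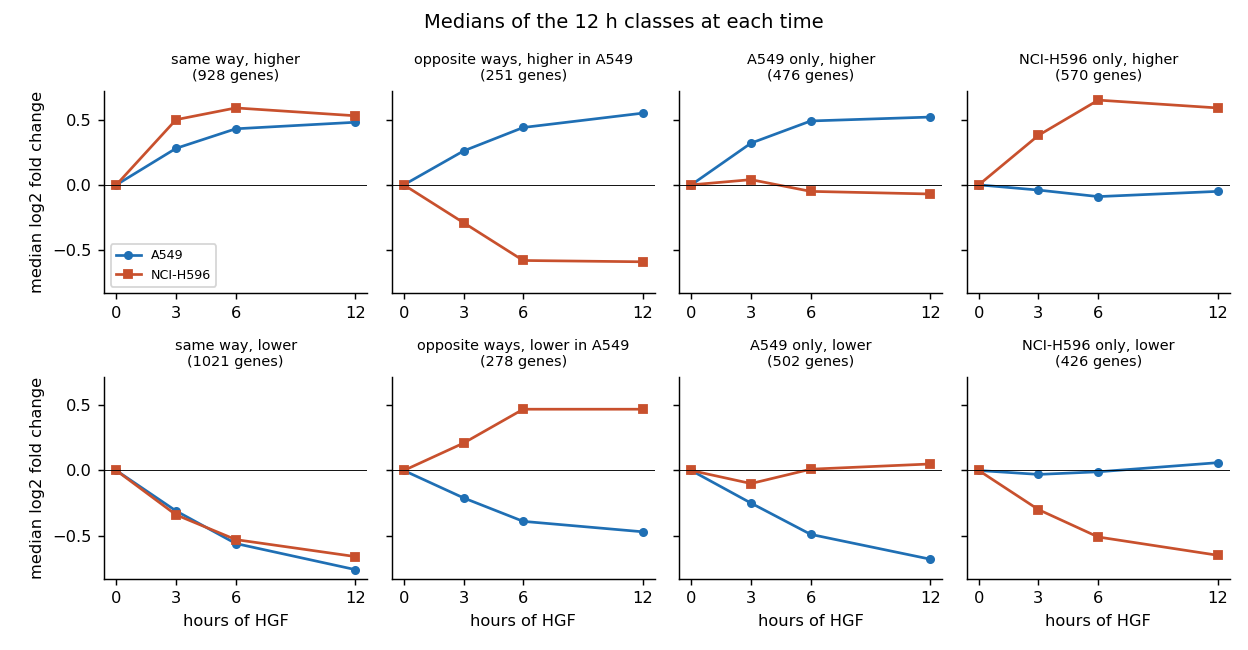
Median log2 fold change against 0 h of each class defined at 12 h, at 3 h, 6 h and 12 h of HGF (horizontal axis, hours), in A549 (blue circles) and NCI-H596 (red squares). The lines part from 3 h on in the opposite class (0.26 and -0.29 for the genes higher in A549). In the genes changed the same way they share a direction, with unlike medians at 3 h for those that rose (0.28 in A549 and 0.50 in NCI-H596). Classes were chosen by the sign at 12 h against the same 0 h libraries, which favours such a picture.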

How the data were processed

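RNA was sequenced from A549 and NCI-H596 after 0, 3, 6 and 12 h of HGF, 2 libraries each. The authors trimmed adapters, mapped reads with STAR to hg38 and deposited whole-number counts per gene without normalization. The submitters' processing notes name STAR 2.5.0 and RSEM 1.3.2. RSEM estimates counts, so these may be rounded estimates. Which annotation was counted, and whether strand was used, is not given in the sources used here. The count columns spell A549 slightly differently.

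The deposited counts were tested with edgeR 4.0.16 in R 4.3.3 (filterByExpr with a minimum of 10 counts, TMM, quasi-likelihood F test with robust estimation). The fit had 1 coefficient per condition over 16 libraries, because the study's additive formula gives no difference in response between lines. P-values were adjusted by Benjamini-Hochberg over all 15067 genes (threshold 0.05), and ± is the standard error of the fit, with 2 libraries per condition. The fit holds 1 estimate of the spread per gene for all conditions. For NCI-H596 at 12 h, whose libraries differed most, ± and p-values can therefore be too small, and for the other conditions too large. The study describes its sequencing experiments as biological duplicates, and the labels do not tie replicates to separate cultures. The p-values therefore measure the spread between these libraries. Named genes were those with the largest values in each class and list above an expression minimum, plus MET, TBP, CDKN2A, MTAP and RB1. Members and lists were chosen with earlier results of these data known. The procedure was tested on simulated data. Gene positions are those of GENCODE on hg38, and promoters those of RefSeq (GRCh38.p14). Libraries of cells with amplified wt MET were not analysed here, and 4 genes that meet the naming rule are not reported here.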

Additional observations from a re-analysis of the deposited data

Results flagged for a closer look

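The responses of the lines at 12 h differed by a test of the difference itself for 3621 genes. Of the 102 named genes with a called difference, 37 were called in opposite directions in the lines and 65 were not. Toward A549, the difference on the log2 scale (NCI-H596 minus A549) was FBXO32 (-3.69), BHLHE41 (-2.65), H2BC5 (-2.48), KLHL24 (-2.38), PER3 (-2.36), CREBRF (-2.23), DDIT3 (-2.23), SAMD9 (-2.21), GABARAPL1 (-2.13), FOSB (-2.10), JUNB (-2.01), NR1D2 (-1.97), BHLHE40 (-1.86), H4C8 (-1.86), THOC6 (-1.84), LTBP1 (-1.71), TGIF1 (-1.69), GFPT2 (-1.68), REL (-1.67), PARP14 (-1.49), HERPUD1 (-1.23), GADD45A (-1.13), ME1 (-0.95) and PTGS2 (-0.76). Toward NCI-H596, it was TGM2 (2.51), LPAR1 (2.51), CTPS1 (2.12), SLC29A1 (2.11), BOP1 (2.06), FHOD1 (1.79), UHRF1 (1.60), MYBBP1A (1.54), SLC16A3 (1.48), TCOF1 (1.40), PFKP (1.305), MST1R (0.96) and OSTC (0.78). With 2 libraries in every condition, the gap of 1 library to the rest of its group could not be tested.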

How the results depend on the processing

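Counts below are given in the order A549, NCI-H596, difference, same way, opposite ways, A549 only and NCI-H596 only. With only the 8 libraries at 0 h and 12 h in the fit, which leaves fewer libraries for the spread, they were 3449, 4072, 1937, 1067, 247, 398 and 506, and with a minimum absolute log2 fold change of 1 they were 1096, 1358, 1177, 192, 24, 95 and 112. Leaving out 1 library at a time gave ranges of 3086 to 6895, 3749 to 7182, 2512 to 5169, 1250 to 2915, 313 to 954, 574 to 1378 and 645 to 1535. A count moved by over 1.5 times without A549 12 h replicate 1 (3086 for A549, 1250 same way, 313 opposite, 574 A549 only) or replicate 2 (352 opposite), without NCI-H596 0 h replicate 1 (3749 for NCI-H596, 320 opposite, 645 NCI-H596 only) or replicate 2 (630 A549 only), and without NCI-H596 12 h replicate 1 (954 opposite) or replicate 2 (924 opposite, 1535 NCI-H596 only); the lone library of such a group was assumed to vary like the others. As chosen after seeing the data, 506 and 652 of the genes changed in A549 only and NCI-H596 only kept their class without either NCI-H596 12 h library. Deviations of same-numbered libraries correlated from -0.159 to 0.111 over 28 pairs of conditions (0.111 for A549 and NCI-H596 at 12 h), so the numbers were not taken to pair libraries. With the replicate block the counts were 4835, 5348, 3270, 1707, 460, 890 and 915, all within 1.5 times of the values reported, as were those with DESeq2, DESeq2 size factors, other filters on low counts, offsets for GC content and length (available for 99.8% of genes), each line fitted alone and no bound on the other line. Of 2197 pairs of a named gene and an alternative, 2143 kept their side of the threshold, 42 lost the call of the difference, 12 gained it and 0 called differences turned direction. Differences that were not called, such as those of TNFSF10 (-2.18 to 2.10), SERPINB2, KRT13, APOBEC3B and AKR1C3, could take either sign. BIRC3, CXCL8, CLDN4 and ELF3 lost it most often (9, 7, 7 and 4 of 17 alternatives). The depth and 2 libraries per condition limit small changes in low genes; the causes of these shifts were not tested.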
